A study of Mus musculus with 4 samples.

Results

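NANOG peaks at active promoters were examined before and after acute loss of OCT4 in mouse embryonic stem cells (ESCs). A peak entered the set when the deposited peak table flagged it as an active promoter and its NANOG signal reached 0.9 RPKM (reads per kilobase of window, scaled to library depth) in uninduced or treated cells. These criteria kept 477 of 542 flagged windows, out of 16608 bound peaks among 21066 windows of 351 bp. The 65 flagged windows below the threshold were left out. The promoter flag marks windows that overlap a published H3K4me1 or H3K4me3 peak, histone marks of enhancers and promoters, and lie within 1 kb of a published RNA polymerase II peak.

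The libraries were NANOG ChIP-seq from ZHBT-O4AID ESCs of strain 129SV. All libraries shared 1 genotype. Endogenous Oct4 was absent (Oct4-/-), a TetOFF Oct4 transgene supplied wild-type protein only without doxycycline, and CAG Oct4AID and CAG Tir1 supplied, from the ubiquitous CAG promoter, OCT4 fused to an auxin-inducible degron and the plant receptor TIR1 that targets the degron. Doxycycline held the TetOFF transgene off, and the medium was N2B27 with PD03, Chiron and mLIF, which keeps ESCs naive. Uninduced cells (2 libraries) were compared with cells given 500 µM IAA, the auxin that triggers degradation of the fusion protein, for 1.5 h (2 libraries). All libraries came from 1 engineered line. The labels do not say whether replicates were separate cultures, so the spread between them may be technical. Library totals recovered from the values were 8236968 and 11674801 reads for uninduced cells and 19634763 and 5406307 reads for IAA. A single read was worth 0.145 to 0.527 RPKM, most in IAA replicate 2, and 104 promoter peaks had at most 3 reads in an uninduced library.

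NANOG is a homeodomain transcription factor of naive pluripotency that often binds enhancers together with OCT4 and SOX2. Promoters differ from enhancers in that transcription of the gene begins there. Many mammalian promoters lie in CpG islands, stretches that escape the loss of CpG seen elsewhere in the genome, and carry GC boxes (bound by SP and KLF factors), CCAAT boxes (NFY) or ETS sites. OCT4 binds the octamer, usually beside a SOX motif.

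The first sequences show peaks that carry the results below, from the plus strand of GRCm38 around the peak centre, with matches to the motifs searched in capitals. They include the strongest promoter peak (Hax1), a strong peak upstream of the gene for OCT4 itself (Pou5f1), the peak with the largest fitted log2 change (Scpep1), a peak called lower after IAA (Lima1), and a pair of strong peaks close to transcript starts and to OCT4 (Srrm4os and Fbxo27). Capitals mark CCAAT or ATTGG in Hax1, Pou5f1, Scpep1 and Lima1, CATTGTT or AACAATG (SOX) in Hax1, Lima1, Srrm4os and Fbxo27, CCGCCC (a GC box on the minus strand) in Hax1, CCATTA (homeodomain) in Srrm4os and AAGGTCA (ESRRB) in Fbxo27.
Hax1, chr3:89998153-89998324: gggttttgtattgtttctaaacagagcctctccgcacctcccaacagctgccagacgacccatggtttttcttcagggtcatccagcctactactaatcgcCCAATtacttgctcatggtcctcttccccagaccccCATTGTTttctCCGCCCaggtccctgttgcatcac
Pou5f1, chr17:35504111-35504310: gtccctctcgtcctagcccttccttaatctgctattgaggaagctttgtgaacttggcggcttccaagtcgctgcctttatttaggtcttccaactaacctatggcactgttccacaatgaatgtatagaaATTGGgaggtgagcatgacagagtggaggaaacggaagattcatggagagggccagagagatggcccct
Scpep1, chr11:88954912-88955111: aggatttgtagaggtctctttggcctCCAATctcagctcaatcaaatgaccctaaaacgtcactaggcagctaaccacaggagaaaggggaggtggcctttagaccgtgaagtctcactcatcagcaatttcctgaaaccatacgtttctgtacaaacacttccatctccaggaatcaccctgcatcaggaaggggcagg
Lima1, chr15:99874672-99874832: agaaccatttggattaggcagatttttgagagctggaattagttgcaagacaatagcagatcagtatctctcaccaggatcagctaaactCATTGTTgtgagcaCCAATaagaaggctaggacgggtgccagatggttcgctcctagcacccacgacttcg
Srrm4os, chr5:116438153-116438352: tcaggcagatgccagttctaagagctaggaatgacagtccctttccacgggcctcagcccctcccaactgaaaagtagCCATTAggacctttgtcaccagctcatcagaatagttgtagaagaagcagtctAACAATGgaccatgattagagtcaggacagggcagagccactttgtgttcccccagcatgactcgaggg
Fbxo27, chr7:28692594-28692793: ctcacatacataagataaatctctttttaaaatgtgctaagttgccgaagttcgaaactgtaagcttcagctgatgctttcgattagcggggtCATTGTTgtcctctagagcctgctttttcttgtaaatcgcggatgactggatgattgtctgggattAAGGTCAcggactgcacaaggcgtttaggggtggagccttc

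Another group of sequences shows the range of base composition, with every CG dinucleotide in capitals. The Ntmt1 peak holds 15 CG dinucleotides in 200 bases, the Kank2 peak holds 2, and the Gm13717 peak, called lower after IAA, is a tandem repeat with 1.
Ntmt1, chr2:30807429-30807628: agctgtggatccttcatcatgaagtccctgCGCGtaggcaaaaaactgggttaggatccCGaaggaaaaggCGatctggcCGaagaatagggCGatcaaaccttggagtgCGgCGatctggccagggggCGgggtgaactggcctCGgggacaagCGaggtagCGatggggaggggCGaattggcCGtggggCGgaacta
Kank2, chr9:21799117-21799316: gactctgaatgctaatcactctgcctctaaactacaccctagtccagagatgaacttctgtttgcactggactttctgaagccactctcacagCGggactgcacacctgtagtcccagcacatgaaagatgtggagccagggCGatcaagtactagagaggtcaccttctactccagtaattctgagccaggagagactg
Gm13717, chr6:29748318-29748517: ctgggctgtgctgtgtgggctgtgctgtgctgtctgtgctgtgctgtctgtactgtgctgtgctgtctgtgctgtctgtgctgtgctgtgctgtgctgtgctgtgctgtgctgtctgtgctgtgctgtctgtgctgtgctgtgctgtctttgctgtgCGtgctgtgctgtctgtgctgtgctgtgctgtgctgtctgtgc

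The promoter label was checked against the GENCODE annotation. Of the 477 peaks, 318 (66.7%) had an annotated transcript start within 1 kb of the centre, compared with 8.26% of the 16131 bound peaks without the flag. A further 80 peaks reached to within 5 kb, and 79 lay beyond, the farthest at 120429 bp. The label was thus not borne out by annotated starts for 159 peaks over 1 kb away, which are called distal here. Among distal peaks 62.3% were also flagged as active enhancers (within 1 kb of P300 and overlapping H3K27ac), and among the 318 proximal peaks 37.4% were.

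Proximal peaks gathered just upstream of the start. The centre was upstream in 178 (56.0%) and within 200 bp of the start in 126 (39.6%), with a median distance of 307 bp. From 1000 to 501, 500 to 251 and 250 to 1 bp upstream, the shares were 11.9%, 15.1% and 28.9%. In proximal bound peaks without the flag they were 23.0%, 12.7% and 22.3%. Lying upstream was thus not particular to flagged peaks, which were more often in the bin next to the start. In the 100 bases immediately before the start 60 peaks were centred, and 41 of them (68.3%) were CpG-rich, which here means a GC content of at least 50% and an observed over expected CpG ratio of at least 0.6. The share of CpG-rich windows was 62.0% from 250 to 1 bp upstream and 65.1% over the first 250 bp downstream. Farther out it was 2.63% between 1000 and 501 bp upstream and 10.8% between 500 and 1000 bp downstream. NANOG signal did not follow the same profile. The median over the 4 libraries was 2.79 RPKM just upstream and 2.60 RPKM just downstream of the start, against 3.04 RPKM and 4.06 RPKM in the outermost bins on either side.

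**Figure D1:**
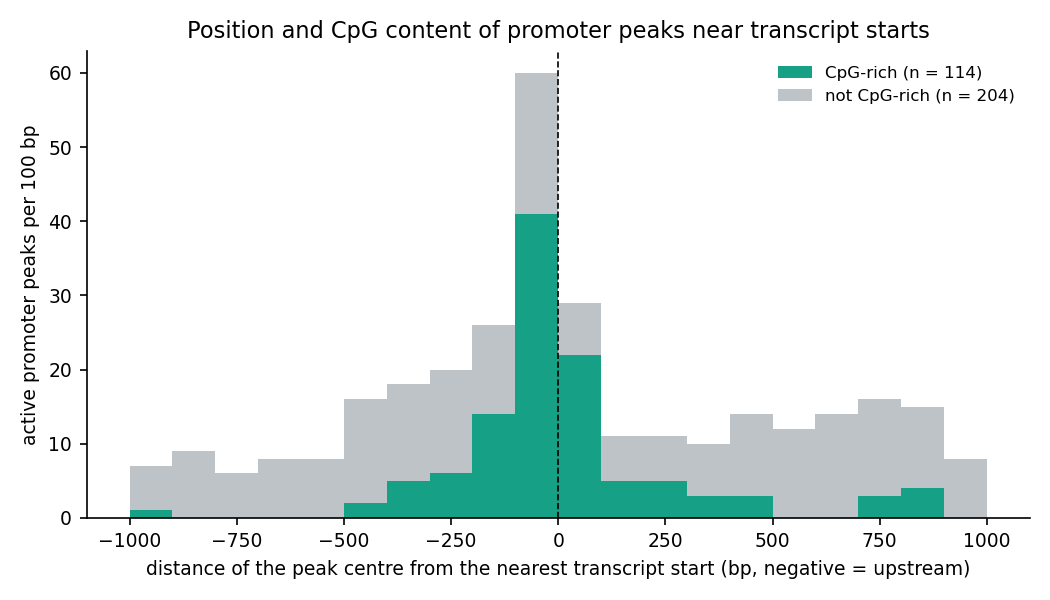
Number of active promoter peaks (y axis) per 100 bp of distance between the peak centre and the nearest annotated transcript start (x axis, bp, negative values upstream), for the 318 peaks within 1 kb of a start. Bars are stacked by CpG content (114 CpG-rich and 204 other peaks), and the tallest bar is the 60 peaks in the 100 bp before the start.

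Promoter peaks were richer in GC and CpG than NANOG peaks at large. The median GC content was 51.0% against 46.2% over all bound peaks, the median CpG ratio 0.39 against 0.19, and 122 peaks (25.6%) were CpG-rich against 1.60%. Peaks flagged only as enhancers were CpG-rich in 1.11% of cases. Bound peaks near a start but without the promoter flag were CpG-rich in 4.95%. Starts on both strands lay within 1 kb of 65 peaks, 20.4% of the proximal flagged peaks against 4.95% of the proximal unflagged ones. The nearest start belonged to a protein-coding gene for 373 peaks and to a lincRNA for 32.

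Short motifs were counted on both strands of each 351 bp window, and a match describes letters only. GC boxes (GGGCGG) occurred in 31.4% of promoter peaks against 8.09% of all bound peaks, and in 35.6% of 32817 RefSeq promoters of mouse genes, which span 250 bases before to 50 bases after the start. CCGGAAG (ETS) occurred in 10.3% against 2.58%, GCATGCGC (NRF1) in 2.94% against 0.47%, and TGACGTCA (CRE) in 2.10% against 0.23%. Several motifs of pluripotency factors were found in a smaller share of promoter peaks than of bound peaks, although GGGTGTG (KLF) was in 14.0% against 13.7%. CATTGTT (SOX) was found in 7.76% against 14.3%, TAATGG (homeodomain) in 15.5% against 20.9%, AAGGTCA (ESRRB) in 15.3% against 18.7%, and ATGCAAAT (octamer) in 5 peaks (1.05%) against 2.96%. The RefSeq promoters, which are shorter than these windows, had 3.78% (SOX), 7.72% (homeodomain), 4.72% (ESRRB), 7.95% (KLF) and 1.74% (octamer). All but the octamer were thus more frequent at promoter peaks than in RefSeq promoters. CACGTG (E-box) was found in 6.71% against 3.57%, and TATAAA in 10.7% against 16.8%. Of the other motifs, CCAAT (NFY) was in 44.2% against 38.7%, AGGCCT (ZFX) in 12.8% against 12.2%, and AAGATGG (YY1) in 4.40% against 6.32%. Windows with more CpG offer more chances for a match to the motifs that contain CG, and no correction for composition was made.

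OCT4 sites, called by the authors from published reads, lay within 1 kb of 128 promoter peaks (26.8%). This share was 23.6% among bound peaks without the flag and 61.9% among peaks flagged only as enhancers. Of the 128, 87 were also flagged as enhancers, compared with 131 of the 349 peaks away from OCT4. CpG-rich windows made up 12.5% of the promoter peaks near OCT4 and 30.4% of those away from it. GC boxes followed the same order (19.5% near and 35.8% away), whereas SOX motifs (10.9% near and 6.59% away) and octamers (2.34% near and 0.57% away) were more frequent near OCT4.

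NANOG signal at promoter peaks was higher in both IAA libraries than in both uninduced libraries. The median over the 477 peaks was 2.08 and 2.68 RPKM in uninduced replicates 1 and 2, and 3.77 and 4.22 RPKM in IAA replicates 1 and 2. On the log2(RPKM + 0.1) scale the medians of uninduced libraries averaged 1.30 ± 0.25 (SD, n = 2) and those of IAA libraries 2.03 ± 0.11 (SD, n = 2), a difference of 0.73 with a pooled SD of 0.19. All bound peaks moved as a whole by a similar amount, and the gap between the median promoter peak and the median bound peak changed by 0.03 (pooled SD 0.07). With 2 libraries against 2, the exact permutation test cannot give a two-sided p below 0.33, so none of the comparisons of library medians could pass 0.05. Because the set was chosen by a threshold on the same RPKM values, these levels describe the set and are no test of it.

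Peak by peak, 409 of 477 (85.7%) had a higher value after IAA, with a median log2 change of 0.69 and an interquartile range of 0.31 to 1.05. Every IAA value was above every uninduced value at 280 peaks (58.7%, against 60.5% of all bound peaks), both were lower at 17 (3.56%, against 4.23%), and the groups overlapped at 180. limma on log2(RPKM + 0.1), fitted over all bound peaks, called 52 promoter peaks higher (10.9%, against 15%) and 2 lower (0.419%, against 0.337%) at an adjusted p of 0.05. Of the 52, 11 lay near OCT4, 37 within 1 kb of a start and 27 in enhancer-flagged windows, and 22 had at most 3 reads in an uninduced library. The threshold was reached after IAA alone at 17 members, which therefore had to be higher after IAA, and these include 6 of the 52. Each change here includes the shift shared by all bound peaks, 0.76 on the limma scale, and 226 promoter peaks (47.4%) lay above that shift. When the libraries were centred on the median bound peak, 0 promoter peaks were called higher by limma, and 25 had an unadjusted p under 0.05 in that direction. Centring also gave 2 lower calls, but not the same ones, since the Lima1 and Gm13717 peaks lost their calls and a Tfe3 peak gained one. The count of 52 also became 180 without uninduced replicate 2 and 0 without either IAA replicate.

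**Figure D2:**
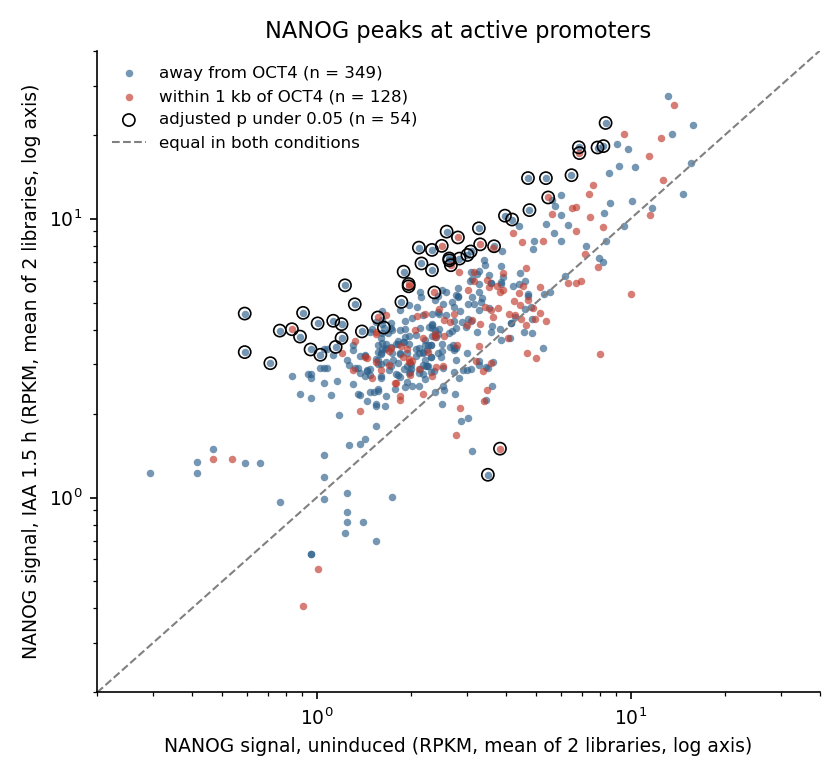
NANOG signal of each active promoter peak in uninduced cells (x axis) and after 1.5 h of IAA (y axis), both in RPKM as the mean of 2 libraries on log axes. Points are coloured by an OCT4 site within 1 kb (128) or none (349), rings mark the 54 peaks with an adjusted p under 0.05, and most points lie above the dashed line of equal signal.

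The median change was similar over the range of peak strength. With the set divided by mean signal into 4 groups of 119 or 120 peaks, the median limma log2 change was 0.73 in the strongest group (4.66 to 20.4 RPKM), 0.68 and 0.73 in the middle groups, and 0.80 in the weakest. The strongest group held 26 of the 52 peaks called higher, and the weakest held 8. Peaks also flagged as enhancers had higher signal than the others in every library, by 0.21 and 0.25 (log2) before IAA and 0.16 and 0.19 afterwards. Their difference changed by -0.06 (pooled SD 0.02), a value whose sign turned when all windows were used, at a threshold of 2 RPKM, or after thinning to equal depth. Proximal and distal peaks had medians of 0.72 and 0.59 for the log2 change, and over library medians the change of proximal relative to distal peaks was 0.08 (pooled SD 0.11). CpG-rich peaks had a median log2 change of 0.63 and the other peaks 0.71.

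The excess of NANOG signal near OCT4 changed less at promoters than at other NANOG peaks. In uninduced replicates 1 and 2, promoter peaks near OCT4 exceeded those away from it by 0.21 and 0.57 (log2 of the median), and after IAA by 0.26 and 0.19. The groups of libraries overlapped, and the difference changed by -0.17 (pooled SD 0.18, exact permutation p = 0.67, n = 2 per group), or by 0.0093 without uninduced replicate 2. Among bound peaks without the promoter flag the near-OCT4 excess was larger before IAA, 0.56 and 0.69, and smaller afterwards, 0.10 and 0.17. There the groups did not overlap, and the difference changed by -0.49.

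The difference between these contrasts, near-OCT4 excess at promoter peaks minus that at other bound peaks, was -0.35 and -0.12 before IAA and 0.16 and 0.02 afterwards. It rose by 0.33 (pooled SD 0.13, exact permutation p = 0.33, the smallest this design allows), between 0.15 and 0.51 over the pairs of libraries. This comparison was added after the data had been seen. Its sign was positive in all 15 alternative analyses, with values of 0.21 to 0.44. Centring and the replicate block cannot change this value, so they are no check of it. In the per-peak changes, the median was 0.56 near OCT4 and 0.73 away within the promoter set, against 0.36 and 0.82 in the rest of the bound peaks. A rise was measured at 79.7% of promoter peaks near OCT4 and 88.0% of those away, compared with 69.6% and 90.6% outside promoters.

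The near-OCT4 excess was also compared within subsets of the promoter peaks. In enhancer-flagged promoter peaks the near-OCT4 excess was 0.40 and 0.66 before IAA and 0.29 and 0.32 afterwards, and these groups did not overlap. In the promoter peaks without that flag it was 0.00 and 0.25 and then -0.06 and 0.00. CpG-rich promoter peaks (16 near OCT4) had 0.12 and 0.34 and then 0.11 and -0.01, also without overlap. In promoter peaks that were not CpG-rich the groups overlapped. Peaks flagged only as enhancers changed by -0.49 in the same measure, and unflagged peaks near a start by -0.28, with values of 0.40 and 0.61 before and 0.10 and 0.35 afterwards. On the limma scale, the median change at proximal promoter peaks was 0.60 near OCT4 and 0.83 away. At unflagged proximal peaks it was 0.39 and 0.88. Distal promoter peaks had 0.598 near and 0.597 away, so the per-peak contrast within the promoter set lay at its proximal peaks. A rise was measured at 76.9% of proximal promoter peaks near OCT4 and 92.5% away, and at 84% and 78.0% of distal ones. Promoter and other peaks near OCT4 had similar median signal over the 4 libraries, 3.90 and 4.02 RPKM. In uninduced replicates 1 and 2, however, the promoter peaks were lower, 2.42 and 3.66 RPKM against 3.11 and 4.39 RPKM. The CpG content of the classes also differed, as described above. Whether starting signal or CpG content had a part in the different changes was not tested.

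**Figure D3:**
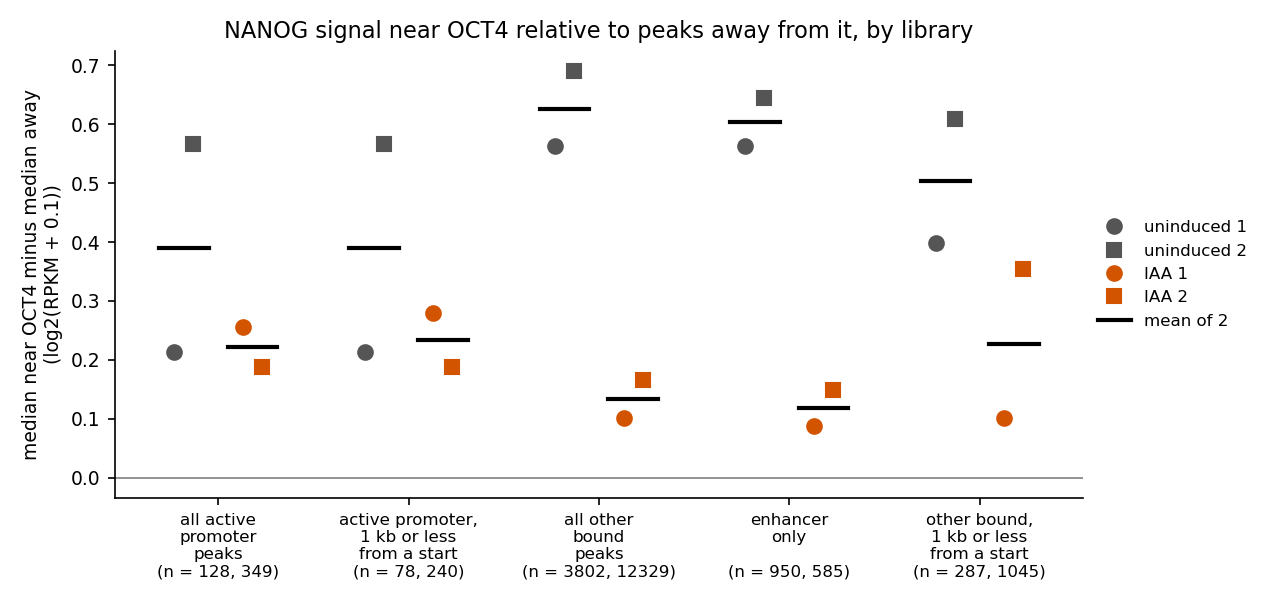
Median NANOG signal of peaks near OCT4 minus that of peaks away from OCT4 (y axis, log2(RPKM + 0.1)) in each of 4 libraries, for 5 classes of peak (x axis, with the numbers near and away). Points are libraries and bars are means of 2. Uninduced and IAA libraries overlap in both promoter classes drawn (0.21 and 0.57 against 0.26 and 0.19 over all promoter peaks) but not in the other 3. They do not overlap in enhancer-flagged promoter peaks, which are not drawn (0.40 and 0.66 against 0.29 and 0.32).

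Against peaks flagged only as enhancers, promoter peaks had lower signal and gained more. The promoter median was below the enhancer-only median by 0.40 and 0.52 (log2) before IAA and by 0.29 and 0.17 afterwards. The gap closed by 0.23 (pooled SD 0.09, exact permutation p = 0.33), and every IAA library was closer than every uninduced library. It closed by 0.038 at a threshold of 2 RPKM, 0.073 with means, 0.123 over all windows and 0.129 after thinning. In those settings the IAA libraries were no longer all closer than the uninduced ones. These classes differ in their share of OCT4 sites (26.8% and 61.9%). Among peaks away from OCT4 the median limma change was 0.78 at promoter peaks and 0.88 at enhancer-only peaks, so in that stratum the order was the opposite. Near OCT4 it was 0.60 and 0.48. The change of proximal peaks with the promoter flag exceeded that of proximal peaks without it by 0.01 (pooled SD 0.08), with a range of -0.10 to 0.12 over the pairs of libraries.

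**Figure D4:**
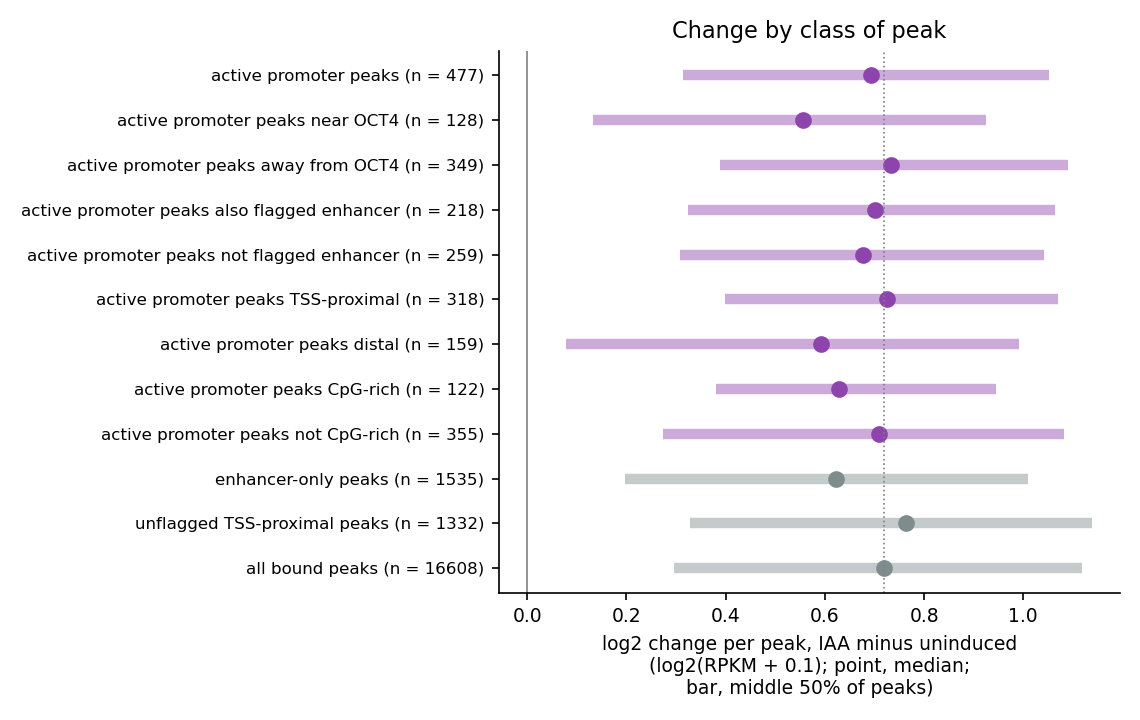
Log2 change of NANOG signal per peak (x axis, IAA minus uninduced, log2(RPKM + 0.1)) for classes of peak (y axis, with n). Points are medians and bars span the middle 50% of peaks, and the dotted line is the median of all bound peaks, 0.72, against 0.56 for promoter peaks near OCT4.

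Lower NANOG signal after IAA was measured at few promoter peaks. Both IAA values lay below both uninduced values at 9 of 128 promoter peaks near OCT4 (7.03%) and 8 of 349 away from it (2.29%). Outside the promoter set these shares were 10.8% and 2.21%. The order differed by distance from a start. Among proximal promoter peaks it was 8 of 78 near OCT4 (10.3%) and 2 of 240 away (0.83%). Among distal ones it was 1 of 50 near (2%) and 6 of 109 away (5.50%). One of the 2 peaks called lower was that of Lima1, which encodes an actin-binding protein. This peak, near OCT4, at chr15:99874558-99874908 in an intron 62 bp upstream of the nearest start, had 4.50 and 3.17 RPKM in uninduced cells and 2.47 and 0.527 RPKM after IAA. The log2 change was -1.61 ± 0.60 (SE), with an adjusted p of 0.0471 by limma. The lower IAA value is 1 read, the lowest value the file holds. The ratio of merged reads per library total was 0.550 (exact 95% interval 0.284 to 1.04 for counting error), and the call was lost in 11 of 15 alternatives.

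The peak 423 bp downstream of a start of Tfe3, which encodes a bHLH factor that opposes exit from naive pluripotency, had 5.19 and 10.7 RPKM before and 3.92 and 2.63 RPKM after IAA. Its groups did not overlap, and its change of -1.19 ± 0.45 did not pass the test (limma adjusted p = 0.0513), but did after centring on the median bound peak (adjusted p = 0.0161). The ratio of merged reads was 0.431 (0.271 to 0.674). Gm13717, in a tandem repeat, went from 3.11 and 3.90 RPKM to 1.89 and 0.527 RPKM (log2 change -1.68 ± 0.62, limma adjusted p = 0.0470, lost in 13 of 15 alternatives). A peak assigned to the pseudogene Pisd-ps1 on chromosome 11 had values of 3.80 and 2.44 RPKM and then 1.89 and 1.05 RPKM. Repeats covered over 75% of the window at 4 of the 17 peaks whose IAA values were both lower, compared with 2.10% of all promoter peaks, and the placing of reads among repeat copies was not tested. Outside the naming rule, and chosen after their values were seen, the peak at the start of Apela, the gene for a secreted peptide hormone, had 3.11 and 3.66 RPKM before and 3.05 and 2.63 RPKM after, and the intronic peak of Cdh3, the P-cadherin gene, 4.84 and 5.12 RPKM before and 3.19 and 3.16 RPKM after.

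The largest fitted log2 changes were at weak peaks. Scpep1, which encodes a serine carboxypeptidase, had an intronic peak 453 bp downstream of the start with 0.692 and 0.488 RPKM in uninduced cells and 3.34 and 5.80 RPKM after IAA. The fitted log2 change was 2.72 ± 0.66 (SE), 1.97 above the shift of all bound peaks. The uninduced values rest on 2 reads each, and the ratio of merged reads per library total was 6.76, with an exact 95% interval of 2.41 to 26.2 for counting error. A230028O05Rik rose by 2.48 ± 0.63, from 0.346 and 1.46 to 3.92 and 5.27 RPKM. The peak upstream of Kank2, a scaffold gene of cell adhesion, had 1.04 and 0.488 and then 3.19 and 4.74 RPKM, a log2 change of 2.29 ± 0.65. Scpep1 and Kank2 reached 0.9 RPKM only after IAA (0.590 and 0.763 RPKM in uninduced cells), so the rule for the set required them to be higher there and their changes carry no test. The peak of Tmem14c, a mitochondrial membrane protein gene of haem synthesis, rose by 2.15 ± 0.56, from 1.73 and 0.732 to 3.63 and 7.90 RPKM. The limma adjusted p-values of A230028O05Rik and Tmem14c were 0.00499 and 0.00619, and these calls were lost in 5 and 6 of 15 alternatives. At all 4 genes the uninduced counts were between 1 and 6 reads per library.

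The strongest peaks were named by their signal and not by their change. Changes smaller than those of the largest rises above therefore follow from the naming rule. The peak of Hax1, a regulator of apoptosis, in an intron at chr3:89998078-89998428 and 109 bp downstream of the start, had 10.03 and 16.4 RPKM in uninduced cells and 27.9 and 27.4 RPKM after IAA. These groups did not overlap, and the change of 1.10 ± 0.45 had a limma adjusted p of 0.0691. The CpG-rich peak 297 bp upstream of Ntmt1, an N-terminal methyltransferase gene, had 8.30 and 18.8 RPKM and then 19.6 and 20.6 RPKM (adjusted p = 0.252). Plekhf2, the gene of an endosomal protein, had 13.1 and 18.5 RPKM and then 17.4 and 25.8 RPKM, and its groups overlapped. Among the strong proximal peaks away from OCT4, that of Snrpa, which encodes a protein of the U1 spliceosomal particle, passed the test. It had 7.61 and 9.03 RPKM before and 19.3 and 24.8 RPKM after (log2 change 1.39 ± 0.43, limma adjusted p = 0.0190, lost in 6 of 15 alternatives).

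Near OCT4, the strongest proximal peaks differed among themselves. Srrm4os, an antisense transcript, had 7.26 and 11.7 RPKM in uninduced cells and 19.0 and 21.1 RPKM after IAA (log2 change 1.11 ± 0.43, limma adjusted p = 0.0579). The peak at the start of Slc35f2, a transporter gene, had 6.23 and 16.6 RPKM and then 17.7 and 15.8 RPKM. At Fbxo27, which encodes a subunit of a ubiquitin ligase, the values were 10.7 and 14.6 RPKM and then 12.2 and 15.3 RPKM. The groups overlapped at Slc35f2 and Fbxo27 but not at Srrm4os.

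Only 3 promoter peaks also carried the repressed flag (overlap with H3K9me3 or H3K27me3), and none was called. Cldn34d on the X chromosome, the sixth strongest of all promoter peaks, had 15.6 RPKM in both uninduced libraries and 11.2 and 20.6 RPKM after IAA. The peak 29 bp upstream of a start of 4931408C20Rik had 4.50 and 2.44 RPKM and then 3.77 and 2.11 RPKM, and another window near Pisd-ps1 had 0.346 and 0.488 RPKM and then 0.580 and 2.11 RPKM. The groups did not overlap at that window, which rests on 1 to 4 reads per library and reached the threshold after IAA alone.

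**Figure D5:**
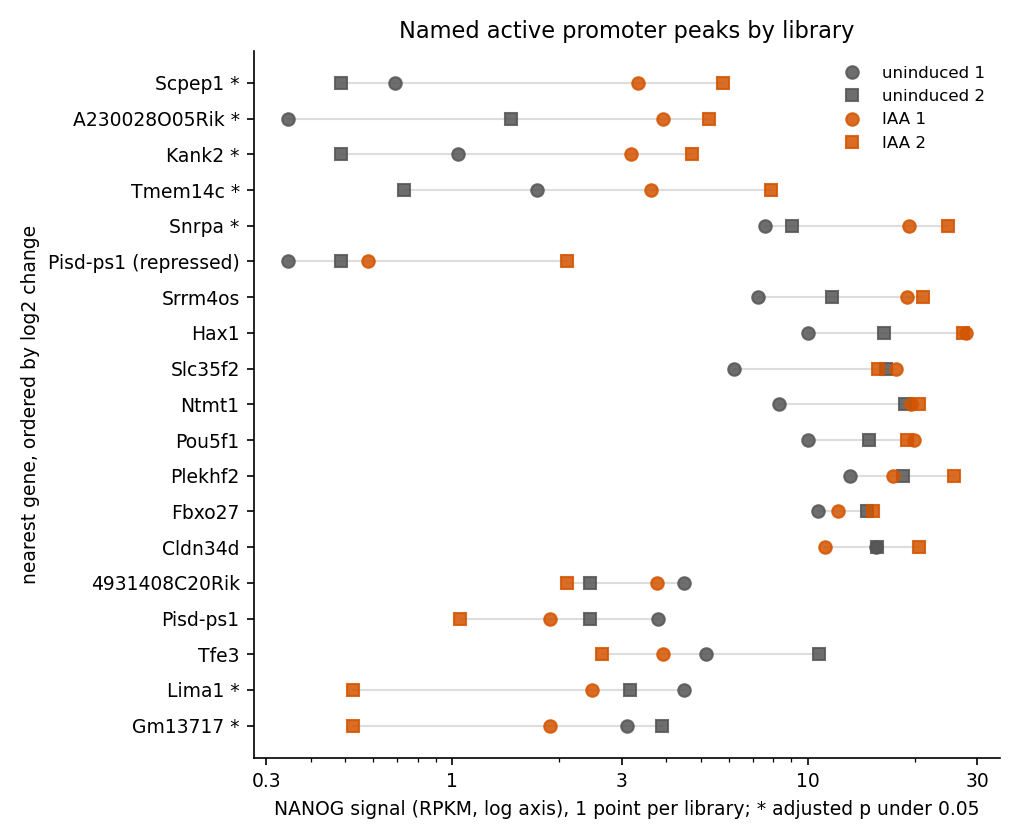
NANOG signal (x axis, RPKM, log axis) of 19 named active promoter peaks (y axis, by nearest gene, ordered by log2 change), with 1 point per library and an asterisk where the limma adjusted p was under 0.05. IAA points of Scpep1 (3.34 and 5.80 RPKM) lie right of its uninduced points, those of Lima1 (2.47 and 0.527 RPKM) lie left, and those of Cldn34d fall on both sides.

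Genes of the pluripotency network owned 11 promoter peaks, when a peak was given to the nearest protein-coding start. Of these, 2 were called higher and none lower, both IAA values were above both uninduced values at 5, and the median log2 change was 0.60, against 0.76 over all bound peaks. Over all bound peaks 15% were called higher and 60.5% had groups apart in that direction. The peak 1807 bp upstream of Pou5f1, at chr17:35504036-35504386, in the stretch that holds the gene's known upstream enhancers, had 10.03 and 14.9 RPKM in uninduced cells and 19.9 and 19.0 RPKM after IAA. Another Pou5f1 peak over a coding exon had 4.15 and 7.81 RPKM and then 9.72 and 6.85 RPKM. Neither passed the test (limma adjusted p = 0.261 and 0.383). The cells carry Oct4 transgenes, and reads of coding exons from transgenes and from the endogenous locus cannot be told apart.

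The called members of the list were Tbx3, which encodes a T-box factor of naive cells, and a peak at the start of the long non-coding RNA Platr22, whose nearest coding gene is Zfp281. The Tbx3 peak, 33 bp upstream of the start and away from OCT4, had 0.346 and 2.44 RPKM in uninduced cells and 2.61 and 5.27 RPKM after IAA (log2 change 1.84 ± 0.62, limma adjusted p = 0.0303). Its value in uninduced replicate 1 is 1 read, the lowest that library holds, and its value in replicate 2 is close to that of IAA replicate 1. The Tbx3 call was not followed through the alternatives. Platr22 had 1.73 and 5.61 RPKM and then 6.96 and 8.96 RPKM (log2 change 1.31 ± 0.45, limma adjusted p = 0.0332, lost in 7 of 15 alternatives). By contrast, Sall4, the gene of a zinc finger factor that acts with OCT4, had 4.15 and 6.59 RPKM and then 4.35 and 4.22 RPKM, and Rif1, a telomere and replication-timing gene, had 3.80 and 5.12 RPKM and then 4.50 and 4.22 RPKM. Both of these lie near OCT4, and their groups overlapped. The remaining members were peaks of Gdf3, Sall1, Zfp42 and the Gm16201 transcript beside Utf1 (2 peaks), with log2 changes from -0.06 to 0.97.

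Cell cycle and growth genes owned 6 peaks, of which 2 were called higher (against 15% of all bound peaks). The peak inside Platr19, the long non-coding RNA nearest to it in the Mycn region, had 5.19 and 8.54 RPKM in uninduced cells and 17.0 and 17.4 RPKM after IAA (log2 change 1.35 ± 0.42, limma adjusted p = 0.0203). It lies near OCT4, and Mycn itself starts 152110 bp away. Cdk4, the kinase gene of the G1 phase, had 4.15 and 5.37 RPKM and then 9.87 and 11.6 RPKM (log2 change 1.16 ± 0.43, limma adjusted p = 0.0459). The calls of Platr19 and Cdk4 were lost in 6 and 8 of 15 alternatives. Both peaks of the cyclin gene Ccnd3 lie near OCT4, with 4.15 and 6.10 RPKM and then 4.93 and 4.22 RPKM at the one, and 2.77 and 4.88 RPKM and then 5.66 and 5.27 RPKM at the other. Pim1, a growth-promoting kinase gene, had a log2 change of 0.65 and was not called.

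The other lists held few promoter peaks, none of them called. Signalling genes owned 3, at which both IAA values were above both uninduced values, as they were at 60.5% of all bound peaks. A pair of these flank Fgf4, the autocrine growth factor of ESCs, with 1.38 and 1.71 RPKM before and 3.48 and 2.63 RPKM after at the upstream peak near OCT4, and 1.04 and 1.22 RPKM before and 3.34 and 3.16 RPKM after at the downstream one. Chromatin regulators owned 4. The peak 58 bp upstream of Phc1, a Polycomb subunit gene, had 4.15 and 9.76 RPKM and then 5.66 and 6.32 RPKM, and that of the remodeller gene Smarca5 stood at 1.38 and 0.732 RPKM and then 1.31 and 1.05 RPKM.

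Genes that match the ribosomal protein symbols owned 5 peaks, with a median log2 change of 0.27. The strongest, of Rps6ka1, is a kinase gene that only shares the symbol, and it had 4.84 and 8.54 RPKM and then 6.53 and 5.27 RPKM. Histone genes owned 3 (Hist2h3c1, Hist2h3c2 and Hist1h2ad), of which 2 had IAA values above and 1 below the uninduced values. Over all bound peaks these shares were 60.5% and 4.23%. Hist1h2ad reached the threshold after IAA alone, and these gene copies share near-identical sequence, among which reads may be divided. Metabolic genes owned 5, from 0.36 at Psat1 to 1.53 at Slc3a2 (log2 change). MicroRNA genes owned 4, including Mir290a, the first gene of a cluster abundant in ESCs, with 0.692 and 1.71 RPKM and then 2.90 and 3.69 RPKM. Lineage regulators owned 1 peak, by the start of Platr11 and 71924 bp from Eomes, with 1.38 and 3.66 RPKM and then 2.76 and 3.16 RPKM.

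At the threshold itself, the promoter-flagged windows just inside had 0.905 to 0.956 RPKM in the higher condition (Gm5466, CR555305.2 and Gm24946) and those just outside 0.844 to 0.890 RPKM (Gm46426, Gm22862 and Tlk2). Peaks of the set did not overlap each other. They belonged to 456 nearest genes, of which 20 had more than 1 peak, and 192 peaks (40.3%) had another bound NANOG peak within 10 kb, compared with 29.8% of bound peaks without the flag.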

How the data were processed

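NANOG ChIP-seq was measured in 2 uninduced and 2 IAA-treated libraries, grouped by GEO's labels. Per the study's methods and the submitters' processing notes, the authors aligned reads to mm10 (GRCm38) with Bowtie2 2.3.4.3, called peaks with MACS2 on both conditions together, and deposited RPKM values over 351 bp windows, per library and per condition. No spike-in entered these values, so a difference is per total reads of each library. In each library 100% of values were whole multiples of 1 read (tolerance 0.001 reads). The condition value was the mean of its libraries.

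Coordinates are 1-based. Windows were annotated with GENCODE mouse release 21 and read from the RefSeq GRCm38 sequence. Promoter motif shares use RefSeq promoters.

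Signal was log2(RPKM + 0.1), which understates the fold change of weak peaks. Library medians were compared by exact two-sided permutation. Medians move in steps of 1 read, so differences can be exactly 0. Single peaks were tested with limma 3.58.1 (variance trend, Benjamini-Hochberg over 16608 bound peaks, threshold 0.05) in R 4.3.3. Other steps used Python 3.11.15, pandas 2.3.3, numpy 2.4.6, pysam 0.24.0, scipy 1.17.1 and matplotlib 3.10.9, and the scripts were tested on simulated data. Intervals cover counting error only.

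Named were the 6 strongest peaks, the 4 largest rises and falls among peaks of 2 RPKM or more whose groups did not overlap, the 3 strongest proximal peaks near and away from OCT4, the 3 strongest enhancer-flagged peaks, all repressed-flagged peaks, the strongest peaks of each gene list, and the 3 windows on either side of the threshold. The members and lists were chosen with earlier results of these data known. Sequences of UTRs and of chromosome 18 (16 peaks) are not printed, and some named peaks are not reported here.

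Alternatives were other pseudocounts (0.01 and 0.5), all windows, 2 RPKM or 0.9 RPKM in the mean as threshold, centring, quantile normalization, thinning, no variance trend, voom, a replicate block, an adjusted p of 0.01, starts of protein-coding genes or 5 kb, and leaving out each library. Means in place of medians, leaving out chromosome 11 from 3.0 to 3.3 Mb, and the comparison of the OCT4 difference between promoter and other peaks were chosen after seeing the data.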

Additional observations from a re-analysis of the deposited data

How the results depend on the processing

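The median change, the OCT4 difference at promoter peaks relative to other peaks, and the change relative to enhancer-only peaks kept their sign in all 15 alternatives, with lowest and highest values of 0.0282 and 0.910, 0.213 and 0.439, and 0.0379 and 0.295. Leaving out 1 library gave 0.554 to 0.910, 0.213 to 0.439 and 0.169 to 0.295 in the same order. Centring cannot change a difference between classes, and the replicate block cannot change any of these values, so neither is a check there. The other differences turned sign as follows. Promoter minus all bound peaks was -0.0939 after thinning, -0.0277 with means and -0.0265 to 0.0947 without 1 library. Enhancer-flagged minus other promoter peaks was 0.0506 over all windows, 0.0162 at 2 RPKM, 0.0608 after thinning and -0.0799 to -0.0393 without 1 library. Proximal minus distal was -0.120 with protein-coding starts and -0.0265 to 0.186 without 1 library. Flagged minus unflagged proximal peaks was -0.125 over all windows, -0.0768 at 2 RPKM, -0.0064 after quantile normalization, -0.0939 after thinning and -0.0521 to 0.0691 without 1 library. Near minus away from OCT4 was -0.344 to 0.00934 without 1 library.

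Of the promoter peaks, 52 were called higher and 2 lower. Higher calls fell to 0 (25 at an unadjusted p under 0.05) after centring, 0 (25) after quantile normalization, 0 (80) after thinning, 4 without a variance trend and 10 at an adjusted p of 0.01. Lower calls were 0 with a pseudocount of 0.01, all windows, quantile normalization (39 at an unadjusted p under 0.05), thinning, no variance trend or an adjusted p of 0.01, and 1 at 2 RPKM and with voom, which called 55 higher. Leaving out 1 library gave 0 to 180 higher and 0 to 2 lower calls. All calls here are limma's. Over 43 named peaks and all alternatives together, 72 of 642 values lost and 22 gained a call, and 38 turned sign at peaks called in neither analysis. Most of the 642 values belong to peaks with no call to lose. The 72 losses all fell on the named peaks called in the main fit, each of which lost its call in 5 to 13 of 15 alternatives. The cause of these shifts was not tested, except that thinning removes reads. Replicate numbers did not pair the libraries (r = 0.00546 over 16608 bound peaks between the replicate differences of both conditions), and with a replicate block 59 peaks were called higher and 0 lower. Depth limits what falls can be seen, since IAA replicate 2 cannot show less than 0.527 RPKM.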
